A study of Mus musculus with 12 samples.

Results

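The medial and the dorsal piece of the embryonic mouse cerebral cortex were compared directly, on the 2 arrays titled medial and the 2 arrays titled dorsal out of the 12 arrays of the study. All tissue was cortex of mice at E16.5, late in the neurogenic period. The other 8 arrays, 2 each of ventral, rostral, occipital and whole-hemisphere tissue, entered the estimate of spread, the filter on low values and the choice of 1 probe set per gene, and are shown where they place a gene. By the labels the dissections were independent. The strain, the number of embryos per piece and any genetic change or treatment are not given in the sources used here. The measured quantity is the Affymetrix average difference, the mean signal of perfectly matching probes minus that of mismatch probes, in arbitrary linear units that can be negative. It is called the level below. A floor of 693.5, computed as the root mean square of the negative values, replaced lower values before log2 was taken, and every difference below is medial minus dorsal in log2. With 2 arrays per piece, each p-value sets a difference against the spread between replicate samples, pooled over all 6 groups of the 12 arrays. It is not the spread of the medial and dorsal pairs alone.

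Both pieces belong to the pallium, whose neuroepithelium makes glutamatergic projection neurons. Radial glia line the ventricle, divide there and give rise to intermediate progenitors, which divide again and produce neurons that migrate outward. The medial pallium forms the hippocampal field and ends at the cortical hem and the choroid plexus, which release Wnt and BMP signals. The dorsal pallium forms the neocortex. In pieces of tissue, fewer cells of a type and less RNA per cell cannot be told apart.

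Both pieces carried the markers of pallial neurons. The deep-layer transcription factor Tbr1 had levels of 15211 and 14107 on the medial arrays and of 24036 and 21368 on the dorsal arrays, and the neuronal differentiation factor Neurod2 ran from 21624 to 40284 on the 4. Most defining genes of the hem were under the floor. Wnt3a, Wnt2b, Wnt5a, Bmp6, Lhx5, Lhx9 and Rspo1 stayed under the floor on all 4 arrays, as did Prox1 of the dentate gyrus. Rspo2, a Wnt agonist of the hem, had 668 and 1255 on the medial arrays and 436 and 476 on the dorsal arrays, above the floor on 1 array. Of the choroid plexus genes, Kl was below 0 on 3 of the 4 arrays, Folr1 had 671 and 1251 on the medial and 154 and 67.6 on the dorsal arrays, and Ttr was above the floor on both medial arrays and on neither dorsal array.

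Few differences passed the test. limma passed 4 of 5832 probe sets at an adjusted p of 0.05 (0.0686%), 2 higher in the medial piece (0.0343%) and 2 higher in the dorsal piece (0.0343%). At an unadjusted p under 0.05 there were 334 (5.73%). Both medial arrays lay above both dorsal arrays for 999 probe sets (17.1%), and both dorsal arrays above both medial arrays for 1054 (18.1%). Over the 4562 genes, with 1 probe set each, 4 passed (0.0877%), 796 (17.4%) were higher on both medial arrays and 856 (18.8%) on both dorsal arrays, which is the background for every gene list below and is no evidence of a difference by itself.

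The difference was also taken in each replicate by itself, replicate 1 of the medial piece against replicate 1 of the dorsal piece and replicate 2 against replicate 2. It was over 2-fold in the same direction in both replicates for 54 probe sets, 35 higher in the medial piece (0.6%) and 19 higher in the dorsal piece (0.326%), or 33 and 19 genes. In 4 probe sets it was over 2-fold in opposite directions. Replicate 2 gave wider differences, with a standard deviation over probe sets of 0.465 in log2 against 0.377 for replicate 1, and 180 probe sets over 2-fold higher in the medial piece against 70. Over all 5832 probe sets the replicate differences had a Pearson correlation of 0.406, given as a description because probe sets are not independent replicates. Both were positive in 1820 probe sets and both negative in 1841.

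**Figure D1:**
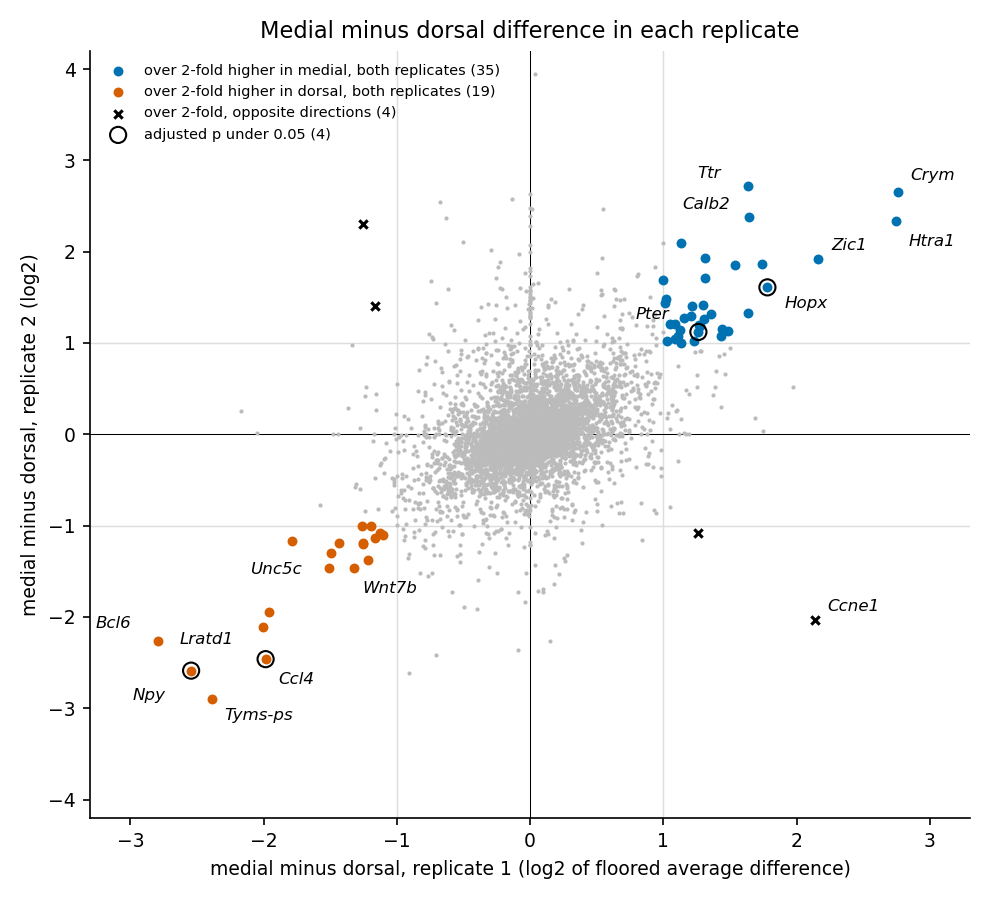
Each point is one of the 5832 tested probe sets, with the medial minus dorsal difference in log2 of the floored level for replicate 1 on the x axis and for replicate 2 on the y axis. The 35 blue and 19 orange points are over 2-fold in the same direction in both replicates, the 4 crosses are over 2-fold in opposite directions, and rings mark the 4 probe sets that passed limma.

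The arrays themselves were of like quality. Between 39.8% and 41.7% of the probe sets of these 4 arrays lay above 2 times the floor. The 5′ to 3′ ratio of beta-actin, which falls when cDNA is short, was 0.725 and 0.706 for medial and dorsal replicate 1 and 0.887 and 0.886 for replicate 2, so it differed by replicate and hardly between the pieces. The 2 medial arrays correlated at 0.934 across probe sets and the 2 dorsal arrays at 0.962. The medial and dorsal arrays of replicate 1 correlated at 0.965, and those of replicate 2 at 0.946. Each medial array was thus closer to the dorsal array of its number than to the other medial array. The rostral and occipital arrays stood apart. Their difference in replicate 1 and in replicate 2 correlated at -0.354 across probe sets, and rostral replicate 2 correlated with occipital replicate 1 at 0.963, above the 0.934 and 0.936 within the rostral and the occipital pair. Zic1, for one, had levels of 3284 and 22097 on the rostral arrays and of 20733 and 2878 on the occipital arrays. Whether the titles of these arrays were exchanged in 1 replicate was not tested. As titled, they widen the spread behind the adjusted p of genes such as Zic1 and Crym. A test without those 4 arrays passed 6 probe sets, of which 2 were among the 4 above, and results that turn on it are given both ways.

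The 4 genes that passed were Npy and Ccl4, higher in the dorsal piece, and Hopx and Pter, higher in the medial piece. Npy encodes neuropeptide Y, a transmitter peptide of inhibitory and some migrating cortical neurons. Its level was 4480 and 4552 on the medial arrays and 26128 and 27370 on the dorsal arrays. It was therefore 5.92-fold lower in the medial piece (-2.57 ± 0.15 SE, adjusted p = 0.000288), with replicate differences of -2.54 and -2.59. Those replicates were nearly equal. The ventral mean was 15765 and the hemisphere mean 13632, between the 2 pallial pieces, and the rostral and occipital arrays ran from 6319 to 7591.

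Ccl4 encodes a chemokine that attracts macrophages and other leukocytes. It had levels of 524 and 419.5 on the medial arrays, both under the floor, and of 2746 and 3822 on the dorsal arrays. It was thus at least 4.67-fold higher in the dorsal piece (-2.22 ± 0.18 SE, adjusted p = 0.0016), with replicate differences of -1.99 and -2.46. All 8 arrays of the other groups were under the floor as well, so that the dorsal arrays were the only ones of the 12 with a measured level. Of the other 6 tested genes of microglia and macrophages, 0 passed and 1, Laptm5, was higher on both dorsal arrays. The summed level of the 7 tested members was 9444 and 10207 on the medial arrays and 12302 and 12299 on the dorsal arrays. Without Ccl4 the other 6 summed to 8921 and 9787 on the medial and to 9556 and 8477 on the dorsal arrays, which overlap. Among the members left out by the filter on low values, Ccl3, Aif1, Itgam and Ptprc were under the floor on all 4 arrays. Ctss had 1090 and 904 against 1218 and 1109, and C1qb passed the floor on 1 array of each piece. The part of these cells in the Ccl4 difference was not tested.

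Hopx encodes a small homeodomain protein without DNA-binding activity that marks radial glia of the medial cortex and neural stem cells. Its level was 8015 and 6480 on the medial arrays against 2332 and 2124 on the dorsal arrays. That made it 3.24-fold higher in the medial piece (1.70 ± 0.22 SE, adjusted p = 0.0472), with replicate differences of 1.78 and 1.61. The medial arrays were the highest of all 12, since the others ran from 2124 to 4202. Pter, a phosphotriesterase-related gene, had 1665 and 1508 on the medial arrays and 405 and 649 on the dorsal arrays, where it stayed under the floor. It was at least 2.28-fold higher in the medial piece (1.19 ± 0.15 SE, adjusted p = 0.0458). Both calls lay close to the threshold, and each was lost whichever of the 4 arrays was left out (adjusted p of 0.252 to 0.563 for Hopx, and of 0.252 to 0.561 for Pter), whereas those of Npy and Ccl4 were kept. Without the rostral and occipital arrays the adjusted p was 0.0633 for Hopx, 0.0754 for Pter, 0.0053 for Npy and 0.0213 for Ccl4. Over all alternatives tried it ran from 1.97e-05 to 0.265 for Npy and from 0.00107 to 0.265 for Ccl4. A fit of only the 4 arrays ended the calls of Npy and Ccl4 (0.124 and 0.250), as trend and robust variances ended that of Ccl4 (0.0574). Pter exceeded 1387, the cut-off of the filter on low values, only on the medial arrays, and Ccl4 only on the dorsal arrays. Each thus entered the test only through the piece where it was high. Values under the floor were set equal and add no spread, which narrows the SE of both genes. With the floor at 2 times the difference was 0.19 for Pter (adjusted p = 0.910) and -1.22 for Ccl4 (adjusted p = 0.0511).

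**Figure D2:**
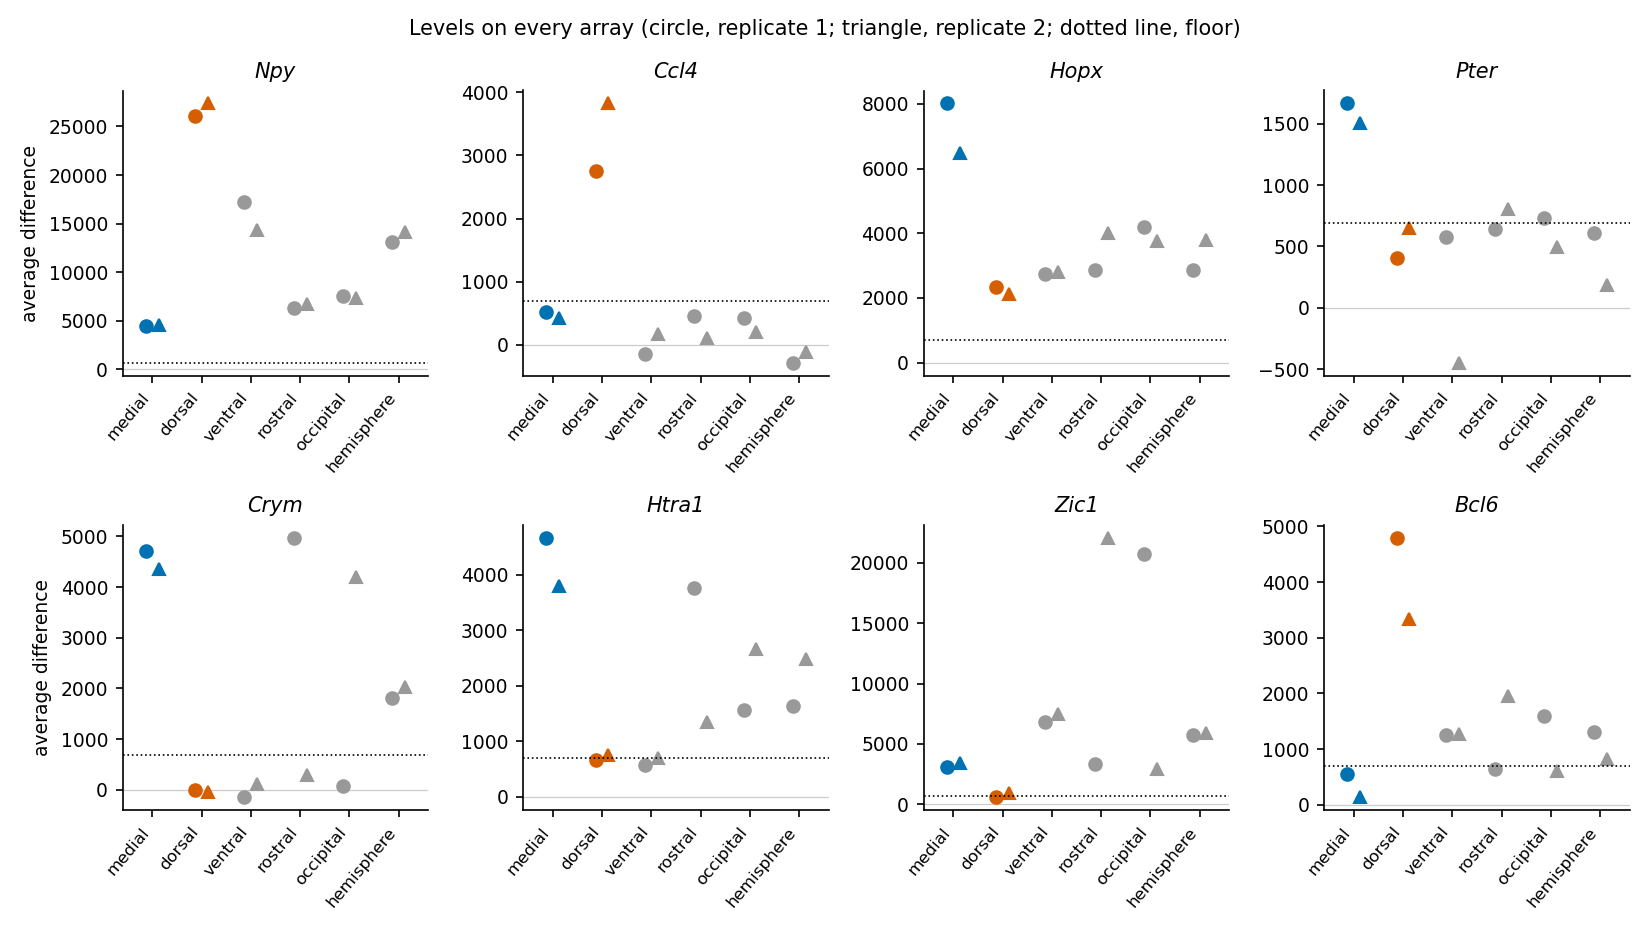
Average difference of 8 genes on each of the 12 arrays, with circles for replicate 1, triangles for replicate 2 and a dotted line at the floor of 693.5. Medial arrays are blue, dorsal arrays orange and the other groups grey; the medial and dorsal points do not overlap for any of the 8 genes, while Crym and Zic1 differ several-fold between the 2 rostral and between the 2 occipital arrays.

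Crym, Htra1 and Zic1 had large differences in both replicates, all higher in the medial piece, and none of them passed the test over all 12 arrays. Crym, a thyroid hormone-binding protein of cortical neurons, had 4705 and 4357 on the medial arrays and -0.9 and -39 on the dorsal arrays, where it was not measurable. Its difference was 2.76 in replicate 1 and 2.65 in replicate 2 (2.71 ± 0.93 SE, adjusted p = 0.607). Its levels on the other arrays were as uneven as those of Zic1, with 4974 and 295 on the rostral and 67.3 and 4191 on the occipital arrays. Htra1, a secreted serine protease, had 4663 and 3788 against 668 and 749.8 (2.54 ± 0.45 SE, adjusted p = 0.128). Zic1, a zinc finger factor of the midline and of meningeal and septal cells, had 3108 and 3436 against 599 and 906 (2.04 ± 0.96 SE, adjusted p = 0.890). Its ventral mean of 7147 and hemisphere mean of 5813 lay above the medial arrays, so the dorsal arrays were the low ones. Without the rostral and occipital arrays these 3 genes passed, with adjusted p of 0.00465 for Crym and 0.0213 for Htra1 and Zic1.

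Genes of the hippocampal field and of the midline epithelium were divided. Zbtb20, a repressor that specifies hippocampal pyramidal neurons, had 1518 and 4107 on the medial arrays and 215 and 960 on the dorsal arrays (1.61 ± 0.73 SE, adjusted p = 0.880). The hippocampal list as a whole did not lean this way, with 5 of 9 tested members positive, 3 of 9 higher on both medial and 3 of 9 higher on both dorsal arrays, and a median of 0.19. On its dorsal side were Meis2 (-0.83), the orphan receptor gene Nr2f1 (-0.47) and the potassium channel gene Kcnk2 (-0.31). Ttr, the thyroxine carrier made by choroid plexus, had 2151 and 4564 against 74.5 and 49.8, with replicate differences of 1.63 and 2.72 (adjusted p = 0.374). Cd63, a tetraspanin of late endosomes on the same list, had 6761 and 5509 against 2864 and 2945 (1.07 ± 0.20 SE, adjusted p = 0.158). Of the 8 tested genes of that list, 6 were positive, and the median was 0.19.

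Among 6 tested genes of the hem and medial patterning, 0 passed and 4 were higher on both medial arrays, with a median of 0.74. That median was 0.36 with the floor at 2 times, 0 without a filter and -0.00087 with a stricter filter, and it reached 1.09 with a lower floor. Besides Zic1 these were Zic2 (0.55), Msx1, a homeobox target of BMP signals with 1736 and 2908 against 1075 and 1298 (0.93 ± 0.29 SE, adjusted p = 0.531), and Id3. Wnt7b, a ligand of cortical plate and ventricular zone, went the other way, with 2496 and 2676 on the medial arrays and 6251 and 7378 on the dorsal arrays (-1.39 ± 0.59 SE, adjusted p = 0.817). Of the Cajal-Retzius list, whose cells are born in the hem and secrete reelin, 4 members were tested and 2 were higher on both medial arrays. Calb2, which encodes calretinin, had 3196 and 3842 against 1024.5 and 738 (2.01 ± 0.35 SE, adjusted p = 0.124). Its mean was 3429 on the ventral, 3363 on the rostral, 3039 on the occipital and 2660 on the hemisphere arrays. For Calb2 too the dorsal arrays were therefore the low ones. Reln itself had 12007 and 8525 against 8861 and 6688, and the arrays of the pieces overlapped.

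Most genes of dividing progenitors were higher on the medial side. Of 29 tested genes of mitosis, 28 had a positive difference and 23 were higher on both medial arrays, against 17.4% of all genes, and the median was 0.55 (0.52 in replicate 1 and 0.50 in replicate 2). Of 22 tested genes of DNA replication 22 were positive (19 to 22 over the alternatives that tested all of them) and 17 were higher on both medial arrays, with a median of 0.44 (0.40 and 0.42). The median of all tested genes was 0.00. No member of either list passed limma, and 9 mitosis genes and 5 replication genes had an unadjusted p under 0.05. The single differences were small next to the spread, and what the lists show is a like direction in many genes of one programme, whose levels are not independent of each other.

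Cdk1, the kinase that drives entry into mitosis, had 7510 and 6115 on the medial arrays and 3485 and 3630.2 on the dorsal arrays, with differences of 1.11 and 0.75 in the replicates (0.93 ± 0.17 SE, adjusted p = 0.167). Its partner cyclin B2 (Ccnb2) had 8752 and 8939 against 5692 and 5125 (0.71 ± 0.19 SE, adjusted p = 0.448). Incenp, a scaffold of the chromosomal passenger complex, had 2097 and 2400 against 864 and 1277 (1.09 ± 0.30 SE, adjusted p = 0.469). The groups did not overlap for any of these. Cdc20, the activator of the anaphase-promoting complex (0.63), Mad2l1 of the spindle checkpoint (0.67), the motor protein gene Kif4 (0.74) and the proliferation marker Mki67 (0.55) lay on the same side. The exception in the list was Stmn1, a microtubule-destabilising protein that is also abundant in young neurons (-0.15).

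In DNA replication, thymidine kinase (Tk1) had 1675 and 2056 on the medial arrays and 999 and 822 on the dorsal arrays (1.03 ± 0.33 SE, adjusted p = 0.516). The licensing factor Mcm2 had 2732 and 2889 against 1760 and 1757 (0.68 ± 0.17 SE, adjusted p = 0.438), so its replicates were close. Topoisomerase II alpha (Top2a, 0.74), the polymerase subunit Pold1 (0.62), the ribonucleotide reductase subunits Rrm1 (0.53) and Rrm2 (0.42) and the sliding clamp Pcna (0.28) were also higher on both medial arrays. Ccne1, the cyclin of the G1/S transition, was one of the 4 genes whose replicates opposed each other, with 3049 and 881 on the medial and 620.0 and 3596 on the dorsal arrays, a difference of 2.14 in replicate 1 and -2.03 in replicate 2. The others were Rad51ap1 (-1.25 and 2.30), Col7a1 (-1.16 and 1.41) and Foxred1 (1.26 and -1.08).

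Genes of late cell cycle phases are known to share 2 promoter motifs, the CHR element TTTGAA and the CCAAT box. The 250 bases before each start site in the RefSeq promoters of assembly GRCm38.p6 were searched for both, on both strands. The 2 motifs can share at most 1 base. The search took the tested members of a list whatever their difference. Its shares therefore describe the list and not the medial and dorsal pieces. Among 24 promoters of 22 of the 29 mitosis genes, 14 held TTTGAA (58.3%), 21 held CCAAT (87.5%) and 13 held both (54.2%). Among all 32851 promoters the shares were 16%, 33.8% and 5.55%. The 22 promoters of 20 of the 22 replication genes held them in 18.2%, 59.1% and 13.6%, and the 27 promoters of 20 of the 31 neuronal cytoskeleton genes in 11.1%, 33.3% and 3.7%. The 150 bases before the start of 3 mitosis genes with a level in every array are shown to let the arrangement be seen, with both motifs or their complements in capitals. Cdk1 lies on the minus strand at chr10:69352913-69353062, Cdc20 on the minus strand at chr4:118437344-118437493 and Ccnb2 on the minus strand at chr9:70421555-70421704. A match describes the letters and shows no binding.
Cdk1: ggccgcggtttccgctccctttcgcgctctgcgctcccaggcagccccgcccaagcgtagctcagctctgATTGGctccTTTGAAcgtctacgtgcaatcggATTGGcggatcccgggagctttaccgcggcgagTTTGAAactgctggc
Cdc20: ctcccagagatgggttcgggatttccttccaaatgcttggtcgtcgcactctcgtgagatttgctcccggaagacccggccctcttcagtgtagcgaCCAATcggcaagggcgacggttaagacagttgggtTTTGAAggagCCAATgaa
Ccnb2: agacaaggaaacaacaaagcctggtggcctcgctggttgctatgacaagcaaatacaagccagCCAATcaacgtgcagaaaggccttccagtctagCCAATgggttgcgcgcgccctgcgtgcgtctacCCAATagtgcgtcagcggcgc
In this stretch Cdk1 holds 2 CHR elements and 2 CCAAT boxes, Cdc20 holds 1 and 2, and Ccnb2 holds 0 and 3.

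The regulators of the G1 phase lay on both sides. Of 14 tested cyclins and inhibitors, 9 were positive, 5 were higher on both medial arrays, and the median was 0.06. Cyclin D3 (Ccnd3) had 1782 and 1602 against 838 and 539, with differences of 1.09 and 1.21. Cyclin D1 (Ccnd1) had 1726 and 1892 against 2633 and 2451, a difference of -0.49, while its other probe set gave 0.33. The inhibitor Cdkn1c, which marks cells leaving the cycle, had a difference of -0.30 with overlapping arrays.

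Radial glia genes were higher on the medial side in most cases. Of 19 tested members Hopx passed, 17 were positive and 13 were higher on both medial arrays, with a median of 0.55 (0.63 and 0.54). Pax6, the transcription factor of cortical radial glia, had 3611 and 2665 on the medial arrays and 1846 and 1720 on the dorsal arrays (0.80 ± 0.23 SE, adjusted p = 0.500). Nestin (Nes), their intermediate filament, had 13327 and 13363 against 8746 and 8665 (0.62 ± 0.18 SE, adjusted p = 0.500). In both genes the 2 pieces were separate. The glycolytic enzyme gene Aldoc (0.76), the acyl-CoA binding protein gene Dbi (0.59), Sox3 (0.80, and 0.96 for its other probe set) and Sox2 (0.43) pointed the same way. Fabp7, the fatty acid binding protein that fills radial glia, differed least (0.12), and N-cadherin (Cdh2) was higher on both dorsal arrays (-0.38).

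Signals and receptors of these progenitors were examined with them. Of 10 tested Notch pathway genes 8 were positive and 4 were higher on both medial arrays, with a median of 0.54. The receptor Notch1 had 4628 and 5928 against 1946 and 4137 (0.88 ± 0.57 SE, adjusted p = 1.00). A further Notch1 probe set gave 1.03. Notch2 (0.73) and the effectors Hey1 (0.55) and Hes1 (0.63) lay on the same side. Smo, which transmits Hedgehog signals, had 1800 and 1744 on the medial arrays against 700.3 and 701 on the dorsal arrays (1.34 ± 0.19 SE, adjusted p = 0.0753). This was the smallest p among the genes higher in the medial piece that did not pass. The dorsal levels of Smo lay just above the floor, and only its medial levels exceeded the filter cut-off of 1387. With the floor at 2 times the Smo difference was 0.35 (adjusted p = 0.374). Of 18 tested genes of FGF and other growth factors 11 were positive and 7 were higher on both medial arrays, among them the receptor Fgfr1 (0.84), the IGF-binding protein Igfbp3 (0.83) and midkine (Mdk, 0.54). Pdgfa, a ligand for oligodendrocyte precursors that neurons make, had 2104 and 2376 against 4086 and 4869 (-0.996 ± 0.33 SE, adjusted p = 0.592), and Dusp6, a feedback target of FGF signals, gave -0.65.

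The BMP, TGF-beta and Id list was split, with 7 of 15 positive and a median of 0.00. Id3, an inhibitor of differentiation induced by BMP, had 2542 and 2096 against 1101 and 855 (1.25 ± 0.33 SE, adjusted p = 0.448), and Id1 gave 0.76. The type I receptor Tgfbr1 had 861 and 581 against 1488.5 and 1648 (-1.02 ± 0.16 SE, adjusted p = 0.0938), and the inhibitor Smad7 gave -0.83. The Wnt pathway list had 13 of 18 positive and a median of 0.16. Dvl2 (1.24), the secreted Dkk3 (0.73) and the receptor Fzd2 (0.51) were higher on both medial arrays. Wnt7b, Sfrp2 (-0.58) and Tcf7l2 (-1.30) were higher on both dorsal arrays, the last on a probe set whose probes may match related sequences.

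Genes of intermediate progenitors and newborn neurons were measured next. Of 20 tested genes 14 were positive, 7 were higher on both medial arrays, and the median was 0.22. The proneural factor Neurog2 had 7141 and 9904 on the medial arrays and 3240.1 and 5016 on the dorsal arrays (1.06 ± 0.49 SE, adjusted p = 0.880). Eomes, which defines intermediate progenitors, had 7361 and 9542 against 4460 and 5764 (0.73 ± 0.30 SE, adjusted p = 0.782), with 0.77 on its other probe set. Neurod1 had 10574 and 11561 against 5502 and 5577 (1.00 ± 0.40 SE, adjusted p = 0.758), and Rnd2, a GTPase that controls migration, gave 0.92 (adjusted p = 0.262). These 4 genes were higher on both medial arrays, as was Gadd45g, a stress and growth arrest gene (1.07 ± 0.20 SE, adjusted p = 0.167). Others of the list were level, such as Insm1 (-0.08), Sox11 (-0.03) and Cbfa2t2 (0.02), and doublecortin (Dcx), a marker of migrating neurons, was higher on both dorsal arrays (-0.20).

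Projection neuron genes lay on both sides. Of 23 tested, 9 were positive and 13 negative, and 5 were higher on both medial and 6 on both dorsal arrays, close to the background share. The receptor Nrp1 had 18434 and 24623 on the medial arrays against 10708 and 13449 (0.83 ± 0.58 SE, adjusted p = 1.00), and 0.82 on its other probe set. Lmo4 (0.60) and Fezf2, which specifies subcerebral neurons (0.38), were also higher on both medial arrays. On the dorsal side, the upper-layer factor Cux1 had 6793 and 7439 against 13495 and 11888 (-0.83 ± 0.26 SE, adjusted p = 0.516), and its relative Cux2 gave -0.91. Tbr1, given above, differed by -0.63 ± 0.23 SE (adjusted p = 0.696). Foxp1 had 1212 and 1412 against 2648 and 2992 (-1.11 ± 0.34 SE, adjusted p = 0.504), with -0.40 on its other probe set, and all 4 probe sets of Mef2c were negative (-0.71 to -0.94). Bcl6, a transcriptional repressor that promotes neurogenesis in the cortex, had 546 and 139.8 on the medial arrays and 4797 and 3329.8 on the dorsal arrays (-2.53 ± 0.52 SE, adjusted p = 0.236, and 0.0490 without the rostral and occipital arrays).

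**Figure D3:**
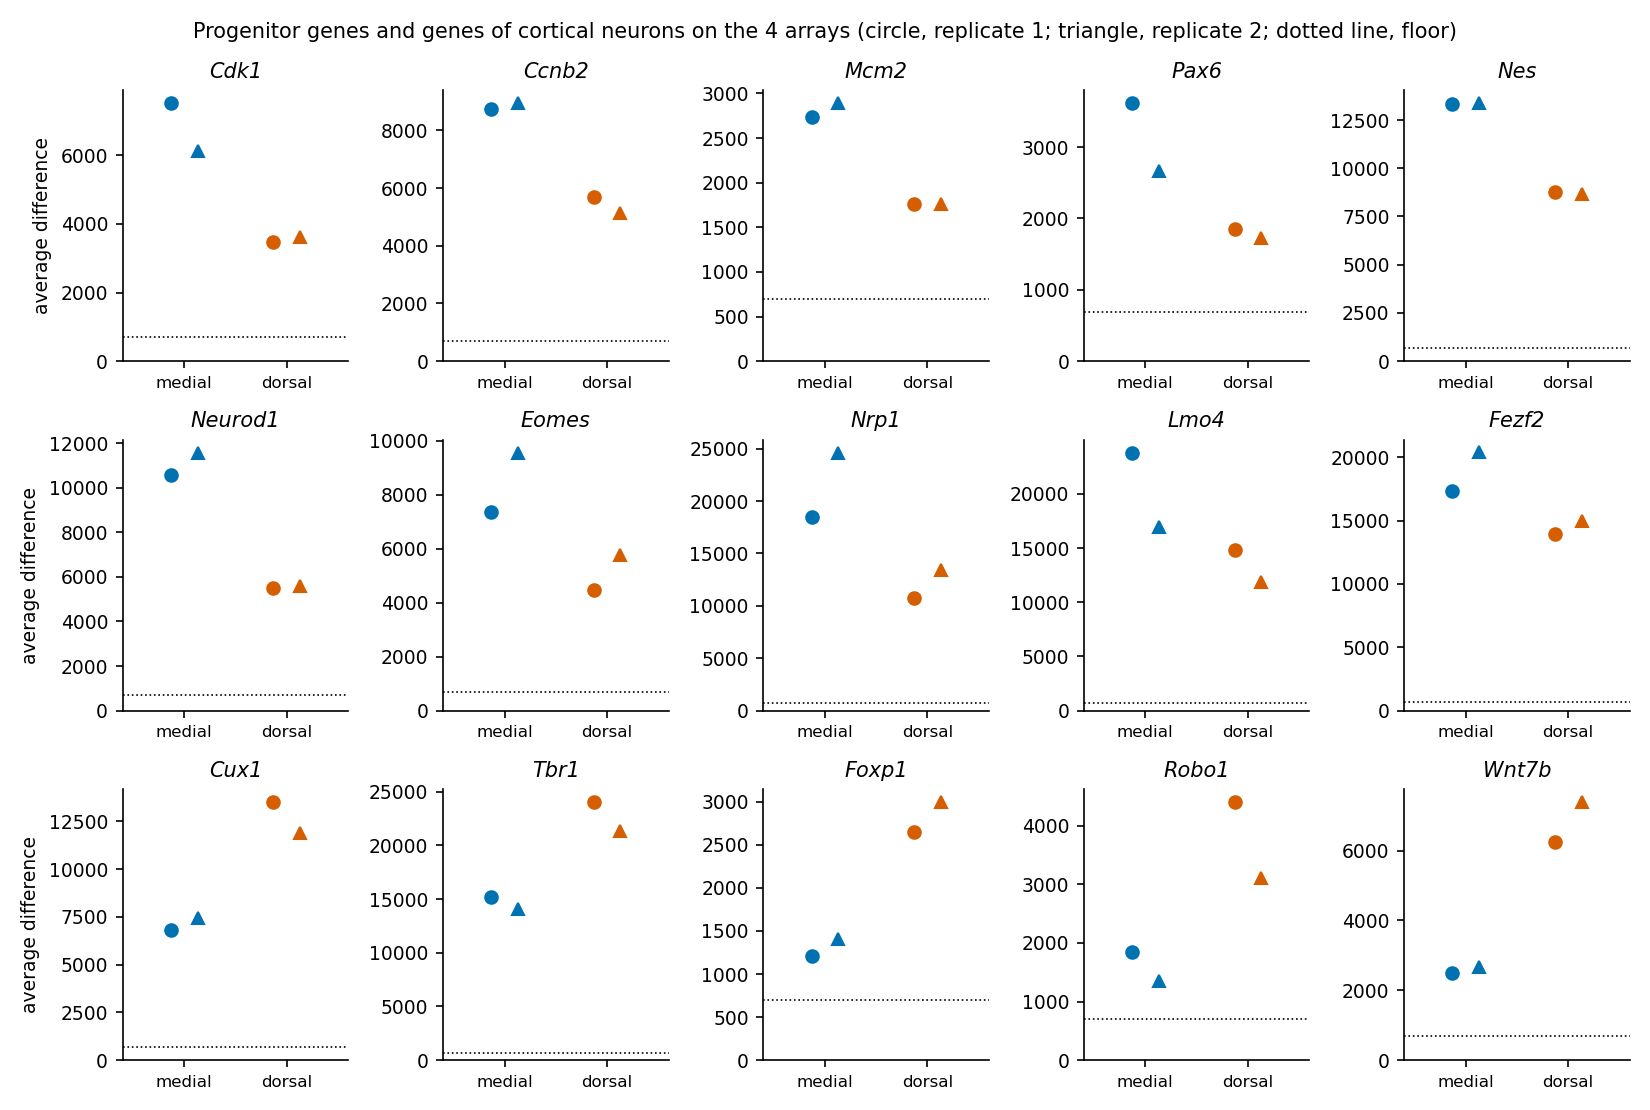
Average difference of 15 genes on the 2 medial (blue) and 2 dorsal (orange) arrays, with circles for replicate 1, triangles for replicate 2 and a dotted line at the floor of 693.5. The first 10 panels, from Cdk1 to Fezf2, hold genes higher on both medial arrays, and the last 5, from Cux1 to Wnt7b, genes higher on both dorsal arrays; none of the 15 passed the test.

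Genes of neuronal outgrowth and transmission leaned to the dorsal piece by small amounts. Of 31 tested genes of the neuronal cytoskeleton and axon growth, 24 were negative and 16 were higher on both dorsal arrays, against 18.8% of all genes, with a median of -0.22 (-0.19 and -0.22 in the replicates). No member passed, and none had an unadjusted p under 0.05. The adhesion molecule Ncam1 had 17565 and 28390 against 31032 and 38420 (-0.63 ± 0.29 SE, adjusted p = 0.890). The growth cone protein Gap43 (-0.37), the stathmins Stmn2 (-0.37) and Stmn3 (-0.35) and the collapsin response mediator Crmp1 (-0.30) were of the same sign. The tubulins Tubb3 (-0.17) and Tuba1a (0.02) overlapped between the pieces.

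Of 19 tested genes of synaptic vesicles and fusion 13 were negative and 10 were higher on both dorsal arrays, with a median of -0.27. The fusion protein syntaxin 1A (Stx1a) had 1063 and 1303 against 1930.4 and 2500.3 (-0.90 ± 0.21 SE, adjusted p = 0.325). The calcium sensors Syt4 (-0.96) and Syt1 (-0.86) and the ATPase Nsf (-0.69) lay on the same side. Snap25, a partner of syntaxin, was instead higher on both medial arrays (0.31). Of the 12 tested receptors and channels, the AMPA receptor subunit Gria2 was negative on its 3 probe sets (-0.60 to -0.94), while the GABA receptor subunits Gabrb1 (1.51) and Gabra2 (0.89) were higher on both medial arrays.

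Peptide genes were led by Npy. Of 17 tested neuropeptide and secretory granule genes, Npy passed, 9 were negative, and 7 were higher on both dorsal arrays, with a median of -0.05. Secretogranin II (Scg2) had 397 and 152 on the medial arrays, under the floor, and 1665 and 1387 on the dorsal arrays (-1.13 ± 0.20 SE, adjusted p = 0.124). That difference is a bound that depends on the floor. For Scg2 it was -2.04 with the lower floor (adjusted p = 0.0094) and -0.13 with the floor at 2 times. The calcium sensor Vsnl1 gave -0.84. Cholecystokinin (Cck) was opposite, with 3307 and 3847 against 1724 and 1078 (1.39 ± 0.56 SE, adjusted p = 0.770). Of 15 tested markers of GABAergic cells, Npy was the only one that passed. The synthesising enzyme Gad1 had 3184 and 2478 against 3224 and 2701 (-0.07), somatostatin (Sst) gave -0.42, and in both the arrays overlapped. Besides Npy, the factors Dlx2 (-0.48) and Lhx6 (-0.31) were higher on both dorsal arrays. Calb2 (2.01), Cck and Cxcr4 (0.53) of the same list were higher on both medial arrays. Calb1, Dlx6, Gad2 and Tac1 were under the floor on all 4 arrays, and the median of the list was -0.04.

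Guidance genes also lay on both sides. The netrin receptor Unc5c had 491 and 786 on the medial arrays and 1970.5 and 2173 on the dorsal arrays (-1.49 ± 0.25 SE, adjusted p = 0.121). The slit receptor Robo1 had 1847 and 1351 against 4394 and 3108 (-1.23 ± 0.47 SE, adjusted p = 0.737), and the semaphorin Sema7a gave -0.80. Among their list of 15, 3 were higher on both medial and 5 on both dorsal arrays. Of 12 tested Eph receptors and ephrins, 1 was higher on both medial and 5 on both dorsal arrays. Ephb6 is counted there as overlapping (0.02). Its other probe set was higher on both dorsal arrays, with replicate differences of -1.10 and -1.11. The receptor Epha7 had 472 and 556, both under the floor, against 1237 and 1083 (-0.74 ± 0.16 SE, adjusted p = 0.262). Its difference is a bound, and was -1.18 with the lower floor and 0 with the floor at 2 times. Epha4 gave 0.75 with overlapping arrays.

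**Figure D4:**
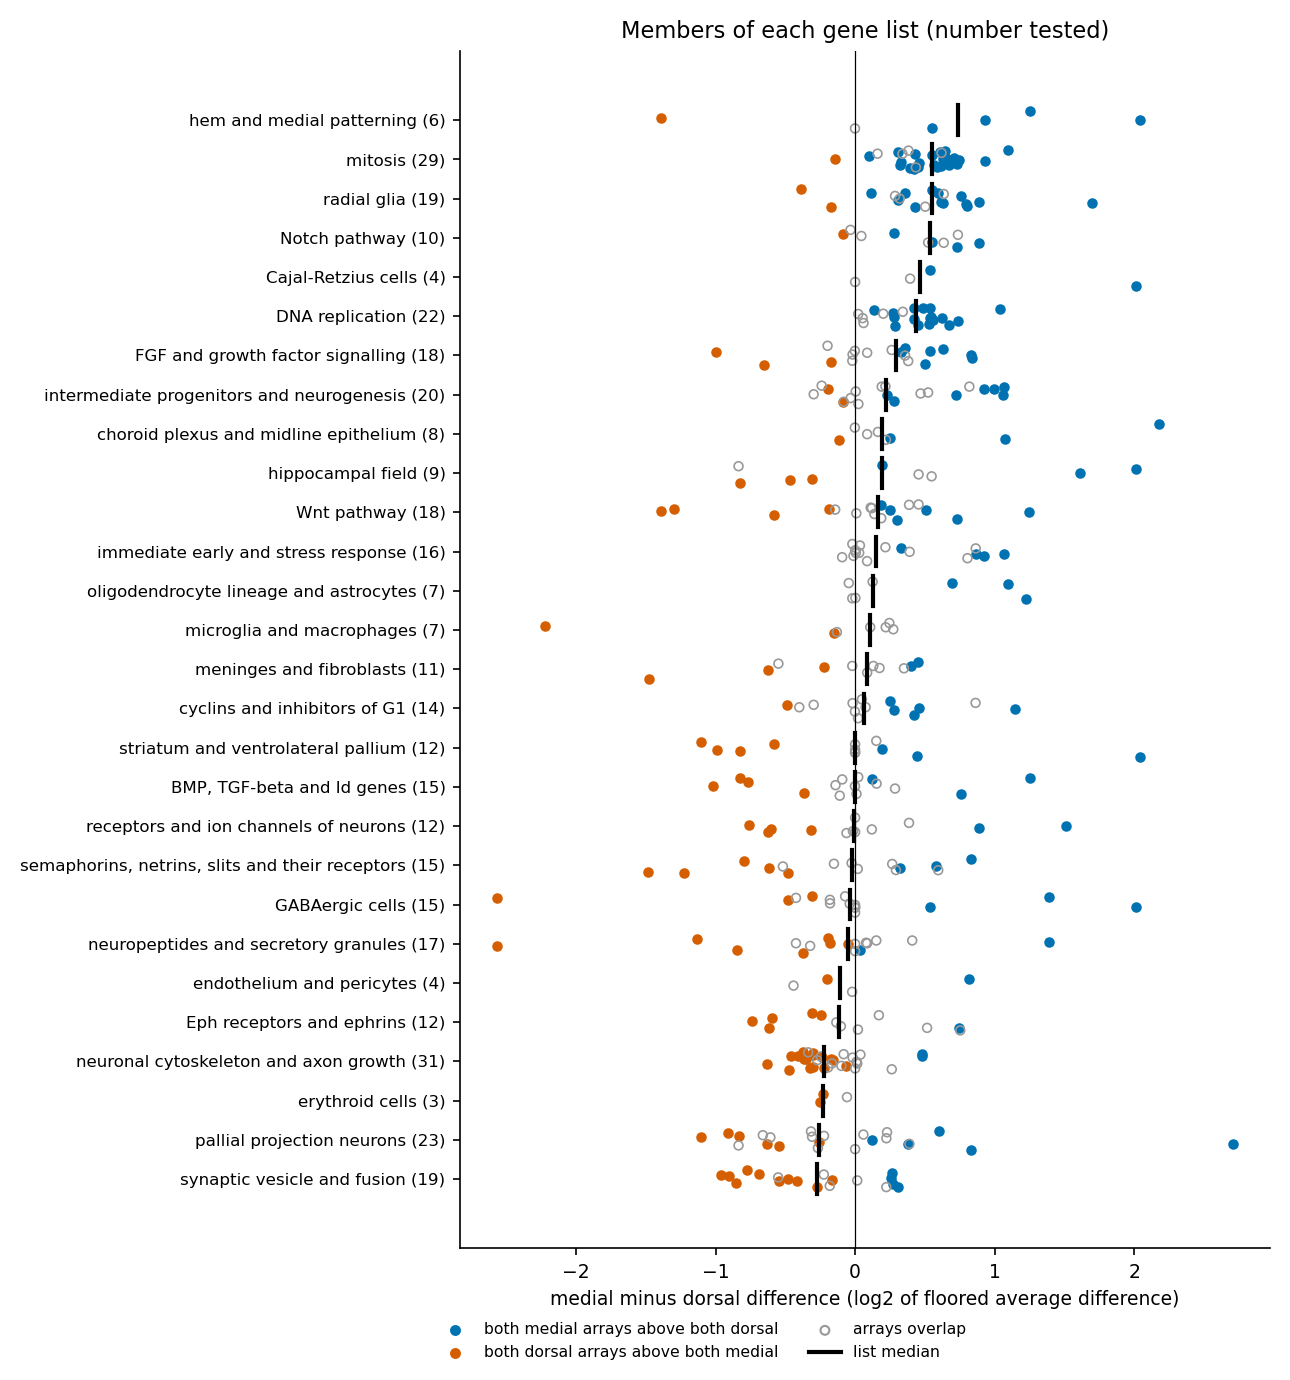
Medial minus dorsal difference in log2 of the floored level for every tested member of the 28 gene lists, with the number tested in brackets and the list median as a black bar. Blue points have both medial arrays above both dorsal arrays, orange points the reverse, and open points overlap; mitosis and DNA replication lie almost wholly to the right of 0, and the cytoskeleton list mostly to the left.

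The remaining genes named by their small p had these roles and values. Higher on both medial arrays were the potassium leak channel gene Kcnk1 (1.31, adjusted p = 0.0915), the ganglioside sialyltransferase gene St6galnac5 (1.48, adjusted p = 0.124), the phospholipase gene Pld2 (1.35, adjusted p = 0.124), the serine synthesis gene Psat1 (0.73, adjusted p = 0.197), Ndrg2, which astrocytes express (1.13, adjusted p = 0.245), and the sulfurtransferase gene Tst (1.14, adjusted p = 0.262). St6galnac5 had a medial mean of 1981, below its means of 3307 on the ventral, 3779 on the rostral, 3519 on the occipital and 3106 on the hemisphere arrays. The other probe set of Ndrg2 gave 0.90, with 1.75 in replicate 1 but 0.04 in replicate 2. The membrane protein gene Stom gave 1.28 (adjusted p = 0.236), but 0.12 on its other probe set. Higher on both dorsal arrays were the actin-binding gene Ablim1 (-1.22, adjusted p = 0.0755), the transcription factor gene Nfe2l3 (-1.40, adjusted p = 0.0783), the neuronal phosphatase gene Ptpn5 (-0.97, adjusted p = 0.197), the sodium-calcium exchanger gene Slc8a1 (-0.80, adjusted p = 0.262), the sterol synthesis gene Cyp51 (-0.76, adjusted p = 0.262), the actin-bundling gene Pls3 (-0.79, adjusted p = 0.325) and the protein kinase A subunit gene Prkar1b (-1.10, adjusted p = 0.357). Of the genes with the largest differences in both replicates, Lratd1 had 1171 and 1482 against 4703 and 6409 (-2.06, adjusted p = 0.504). The thymidylate synthase pseudogene Tyms-ps had 597 and 628 against 3630 and 5187 (-2.65, adjusted p = 0.870), on a probe set of a kind designed with relaxed rules. In the other groups that probe set was low in replicate 1 and high in replicate 2. It had 996 and 4092 on the ventral and -321 and 4293 on the rostral arrays. On the occipital arrays it had -284 and 2895, and on the hemisphere arrays 522 and 5153.

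Markers of other cells the pieces could hold were set beside these results. The 3 tested erythroid genes summed to 103285 and 110459 on the medial and 118988 and 113220 on the dorsal arrays. Of 11 tested genes of meninges and fibroblasts 2 were higher on both medial and 3 on both dorsal arrays, and their sums overlapped (28888 and 36266 against 33130 and 36356). Fibronectin (Fn1), of this list, had 1533 and 2628 against 5296 and 5899 (-1.48 ± 0.38 SE, adjusted p = 0.438). Of 4 tested endothelial genes 1 was higher on both medial and 1 on both dorsal arrays, and Pecam1, Tek and Flt1 were not measured above 2 times the floor. Among 7 tested genes of oligodendrocyte lineage and astrocytes, Apoe had 5722 and 7280 against 2838 and 2689 (1.22 ± 0.26 SE, adjusted p = 0.262), and Gja1 (1.10, but 0.07 on its other probe set) and Clu (0.69) were also higher on both medial arrays. Radial glia are known to express Gja1 too. The astrocyte genes Gfap, Aqp4 and S100b were under the floor on all 4 arrays. The immediate early and stress genes, which respond to dissection, had 12 of 16 positive, with 4 higher on both medial arrays, among them Jun (0.93) and Ier2 (0.87), and a median of 0.15. The striatum and ventrolateral pallium list had 3 of 12 members higher on both medial and 4 on both dorsal arrays, with a median of 0.00. The part of these cells and of dissection in the differences above was not tested.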

How the data were processed

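Poly(A)+ RNA was copied into biotin-labelled cRNA and hybridised to Affymetrix mouse oligonucleotide arrays, per the labels' protocols, and each array was scanned 2 times. The deposited intensities are average differences that the authors had scaled per array, since each array had a 2% trimmed mean of 2501.6 to 2501.9. The labels' account of the analysis breaks off, and the software version is not given in the sources used here. The protocol text lists a lateral piece where the titles say rostral, and titles were followed. Arrays carry no read depth, and their number limits the precision.

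Of 12488 probe sets, 66 controls were left out. Tested were 5832 (46.9%) that exceeded 1387, which is 2 times the floor, on 2 or more of all 12 arrays. A gene could therefore enter through groups not compared here, or only through the piece where it was high. Pter, Ccl4, Smo, Tgfbr1 and Nfe2l3 entered in the latter way. Of the 5832 probe sets, 5292 carry exactly 1 symbol in the platform annotation (4562 genes), 212 several and 328 none. RefSeq (GRCm38.p6) changed 0 symbols. limma 3.58.1 in R 4.3.3 fitted 6 group means to log2 of the floored values (6 residual and 2.86 prior degrees of freedom), with two-sided p-values adjusted by Benjamini and Hochberg over the 5832. Each list gene has 1 probe set, that with the highest mean over the 12 arrays. Folds come from floored log2 means and are bounds ("at least") where the lower piece is at the floor. No replicate block was used, because the labels do not tie equal numbers to 1 dissection.

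Named by rule were the genes past the threshold, those with the smallest p up to 15 in each direction, the 5 with the largest smaller-of-2 replicate difference in each direction, the 4 with opposite replicates, and defining list members. Other list members were chosen after their values were seen. The comparison, the 28 lists and the members were chosen with earlier results of these data known. The code was tested on simulated data. Alternatives were other floors, filters, scales and variance models, fits of fewer arrays, a replicate block, and each array left out.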

Additional observations from a re-analysis of the deposited data

How the results depend on the processing

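The count of 4 probe sets that passed depended on the setting. It was 3 with the lower floor, 1 with the floor at 2 times, 9 without a filter (3 of them among the 4), 2 with a stricter filter, 4 with a filter on the 4 arrays, 2 with quantile normalization, and 1 each with an arcsinh scale and with trend and robust variances. A fit of only the 4 arrays passed 0 in limma, with 484 at an unadjusted p under 0.05, and without the rostral and occipital arrays it was 6. Leaving out one array gave 2 to 3. Npy passed in 14 of 16 alternatives (adjusted p of 1.97e-05 to 0.265), Ccl4 in 10 of 15, Hopx in 3 of 16 and Pter in 3 of 15, and the direction of each was kept. The 54 probe sets over 2-fold in both replicates became 25 with the floor at 2 times and 32 with the stricter filter, and 47 to 67 elsewhere. The lists held 3 passing genes (Hopx, Npy and Ccl4), which lie in 4 lists; the genes numbered 1 with the floor at 2 times, the arcsinh scale, or trend and robust variances, 0 in the fits of 4 arrays with or without a replicate block, and 2 with an array left out (in 3 lists). Of the 39 named genes 4 passed, against 1 with the floor at 2 times, the arcsinh scale or trend and robust variances, 2 with the stricter filter, with quantile normalization or with an array left out, and 0 in both fits of 4 arrays. The cause was not tested beyond the fewer samples. With replicate number as a block over all 12 arrays 6 passed, the 4 genes plus Ablim1 and Smo, and over the 4 arrays 0 passed in limma, with 872 at an unadjusted p under 0.05. The replicate 1 minus replicate 2 deviations of the pieces correlated at 0.502 across probe sets, and with 2 numbers this does not pair the samples. The median kept its sign in every setting in 10 of the 28 lists, those of mitosis, DNA replication, G1, radial glia, Notch, intermediate progenitors, choroid plexus, Cajal-Retzius cells, cytoskeleton and synaptic vesicles. In the settings that tested all members, positive mitosis genes numbered 27 to 28 of 29 and positive replication genes 19 to 22 of 22. Of the 39 named genes, the 4 with opposed replicates changed sign: Foxred1 gave -0.41 with the lower floor and -0.60 on the arcsinh scale, and Ccne1 -0.12 with the floor at 2 times and -0.0096 with quantile normalization. With an array left out, Ccne1 ran from -1.13 to 1.24, Foxred1 from -0.86 to 1.04, Rad51ap1 from -0.59 to 1.64 and Col7a1 from -0.89 to 1.14. Signal near the floor limits what low genes can show, since a difference there is only a bound.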
